A study of Mus musculus with 10 samples.

Results

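The Polycomb genes Bmi1, Rnf2, Cbx2, Cbx7, Cbx8, Ezh1, Ezh2, Eed and Suz12 were followed in RNA-seq of hematopoietic stem cells (HSCs), with members taken by gene symbol. All 9 were found among the 33393 genes listed, with 66 of the 95912 transcripts, and all 9 passed the filter on low values. The cells were sorted from femoral bone marrow of 8-week-old C57BL/6 mice as Lin- Sca1+ cKit+ CD34- Flt3-. Controls carried Reg1flox/flox alleles without Cre, and the compared mice carried Vav1-iCre on the same Reg1flox/flox background (Reg1Δ/Δ), so both groups share the floxed alleles and the Cre transgene was in one group only. Reg1 is Regnase-1, an RNase encoded by Zc3h12a, and Vav1-iCre acts in blood cells at large, not in HSCs alone. The sample names fall into 2 sets, called experiment 1 and experiment 2 here from those names alone, the first with 3 controls and 3 libraries labelled VavKO, the second with 2 controls and 2 libraries labelled VavReg1_KO_LT-HSC. Together these 5 are called the libraries labelled Reg1Δ/Δ below.

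Polycomb group proteins act in 2 main complexes that keep genes silent through chromatin. PRC1 places ubiquitin on histone H2A. Its catalytic subunit is Rnf2 (Ring1B), its partner Bmi1 (Pcgf4) is required for adult HSC self-renewal, and its Cbx subunits read methylated histone H3. PRC2 methylates lysine 27 of histone H3 (H3K27) through Ezh2 or its paralog Ezh1, and needs Eed and Suz12. Ezh2 is known as the enzyme of dividing cells and Ezh1 as that of quiescent cells.

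The values were TPM (the share of all transcripts, scaled to a fixed total), a level corrected for transcript length. Differences are given on the log2(TPM + 1) scale, labelled Reg1Δ/Δ minus control, with the experiment as a covariate. This scale understates the change of low genes. Adjusted p values are those of limma over 12874 genes with at least 1 TPM in at least 5 libraries. The depth of the libraries is unknown, since TPM holds no read numbers. Whether replicates are separate mice is not stated in the labels, and p values measure the spread between these libraries.

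The deleted gene went against the label. Zc3h12a was at 1.83, 1.28 and 1.60 TPM in the controls of experiment 1 and at 3.54, 2.08 and 2.51 TPM in the libraries labelled Reg1Δ/Δ. In experiment 2 it was at 1.48 and 6.07 TPM in the controls and at 10.2 and 8.52 TPM in the libraries labelled Reg1Δ/Δ. Summed transcript values do not show from which exons the reads came, and directions are therefore given by label. Replicate 2 of VavReg1_KO_LT-HSC carried the name of replicate 1 in its header, but 10.4% of 12874 genes were over 1.5-fold apart between this pair, the lowest of the 8 replicate pairs, of which the others were at 12% to 23.9%. It was used as replicate 2.

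Cell type genes moved with the label as well. Of 8 tested HSC markers, 7 were lower in the libraries labelled Reg1Δ/Δ, beside 37.9% lower and 15% higher among all 12874 genes tested, and the sum over the 9 listed went from between 758 and 865 TPM to between 186 and 562 TPM in experiment 1 and from between 337 and 501 TPM to between 181 and 204 TPM in experiment 2. The markers did not all go one way. Ly6a, which encodes the Sca1 antigen of the gate, was at 104.6, 108.4 and 85.2 TPM in the controls of experiment 1 and at 449, 50.9 and 369 TPM in the libraries labelled VavKO, and went from 68.1 and 73.8 TPM to 124 and 115 TPM in experiment 2. Its difference was 0.74 (limma adjusted p = 0.0366) in experiment 2 alone and 0.92 over both experiments, where it did not pass (limma adjusted p = 0.155) but was called higher after median-of-ratios scaling. Procr, which marks HSCs, was at 19.8 to 37.3 TPM in the controls and at 0.108 to 1.36 TPM in the libraries labelled Reg1Δ/Δ, so that this defining marker was near 0 in cells sorted as HSCs. Fgd5, another of the HSC markers called lower, was at 2.61 to 7.50 TPM and at 0.0364 to 0.210 TPM. Procr and Fgd5 met the filter on low values through the controls, where they were high, and both enter the count above. The 8 B lineage markers were all lower, from sums of 187 to 1630 TPM to sums of 2.93 to 23.6 TPM. They met the filter on low values through the controls, where they were high, and Igll1, Vpreb1 and Vpreb3 were among those listed at 0 in at least 1 library. Erythroid markers were higher in 4 of 5 genes, from sums of 624 to 2930 TPM to sums of 6520 to 8750 TPM. Both genes of the negative gate, Cd34 and Flt3, were detected in control HSCs, with Cd34 at 51.9 to 236 TPM, and were lower in the compared libraries. All 4 monocyte and all 4 megakaryocyte markers and 1 of 5 granulocyte markers were lower, the last a share below that over all genes, and none of 3 T cell markers passed the filter, at sums of at most 6.2 TPM. The monocyte marker Csf1r met the filter through the controls, at 3.08 to 7.48 TPM there and 0.293 to 1.33 TPM in the libraries labelled Reg1Δ/Δ. In experiment 1 alone all 5 granulocyte markers were lower (limma, adjusted p under 0.05), beside 38.3% of all genes, with sums of 1710 to 2280 TPM in the controls and 86.2 to 1100 TPM in the libraries labelled VavKO, and in experiment 2 alone 0 of the 5 passed, with sums of 815 to 867 and 706 to 893 TPM. Either scaling named below changed the marker counts over both experiments by at most 1. The part of these cell type differences in the results below was not tested, and in bulk samples fewer cells of a type cannot be told apart from less RNA per cell.

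The study's own oligonucleotides for Bmi1, a primer pair and the target of a short hairpin RNA against it, show which of its transcripts such an assay would read, and are printed for that reason, 5′ to 3′. Bmi1 lies on the plus strand of chromosome 2 of GRCm38 from 18677018 to 18686629.
Bmi1 qPCR forward primer: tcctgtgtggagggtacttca
Bmi1 qPCR reverse primer: ttcaggagtggtctggttttg
Bmi1 hairpin target: ggacattgcctacatttat
The forward primer matched exon 2 of the longest transcript at chr2:18681867-18681887 and the reverse primer exon 3 at chr2:18682293-18682313, giving a product of 148 bases. Both matched all 7 Bmi1 transcripts, so they read 100% of the Bmi1 TPM in every library. The hairpin target matched exon 9 at chr2:18684036-18684054. It is in 2 of the 7 transcripts, which held from 44.6% to 73.4% of the Bmi1 TPM in the 10 libraries.

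The regions before the start sites of Bmi1 and Ezh1, both lower in the libraries labelled Reg1Δ/Δ, and a site before Suz12, which did not pass the test, are shown from the RefSeq promoter table (GRCm38.p6), on the strand of each gene. RefSeq entries were matched for 8 of the 9 genes, all but Cbx2. The 250 bases before each start were searched on both strands for TTTCCCGC and TTTGGCGC, sites of E2F factors, and for the E-box CACGTG. Matches are in capitals.
Bmi1, chr2:18676768-18677017, plus strand: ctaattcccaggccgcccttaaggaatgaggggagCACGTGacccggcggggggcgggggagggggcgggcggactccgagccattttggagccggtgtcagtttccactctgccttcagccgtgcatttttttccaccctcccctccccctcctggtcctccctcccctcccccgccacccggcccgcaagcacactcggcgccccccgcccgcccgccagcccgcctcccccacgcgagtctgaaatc
Ezh1, chr11:101226464-101226713, minus strand: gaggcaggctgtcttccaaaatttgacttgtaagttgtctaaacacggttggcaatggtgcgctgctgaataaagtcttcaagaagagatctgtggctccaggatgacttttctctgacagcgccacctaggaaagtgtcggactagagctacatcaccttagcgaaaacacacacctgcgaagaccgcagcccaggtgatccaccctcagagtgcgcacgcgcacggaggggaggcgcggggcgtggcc
Suz12, chr11:79992876-79992905, plus strand: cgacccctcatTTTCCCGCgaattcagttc
CACGTG was found before Bmi1 and Cbx8, and in 6.02% of 32851 promoters of the same length. TTTCCCGC was found before Suz12 among the members, and in 0.895% of all promoters. TTTGGCGC was found before none of the 8, and in 0.417% of all. No match says only that these letters are not in the window, and the motifs were not tied to any difference in level.

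Of the 9 genes, 6 were lower in the libraries labelled Reg1Δ/Δ and 0 were higher (limma, adjusted p under 0.05). Bmi1, Rnf2, Cbx2, Cbx7, Cbx8 and Ezh1 were lower, while Ezh2, Eed and Suz12 did not pass the test. At an unadjusted p under 0.05, 0 of the 9 were higher. Among all 12874 genes tested, 37.9% were lower and 15% were higher. The median difference of the 9 was −1.11, against −0.25 for all genes. In 5 of the 9, every library labelled Reg1Δ/Δ was below every control of its own experiment, as in 31.4% of all genes, and in 0 of the 9 above, as in 12.7% of all genes. Leaving out any 1 library kept all 6 calls.

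**Figure D1:**
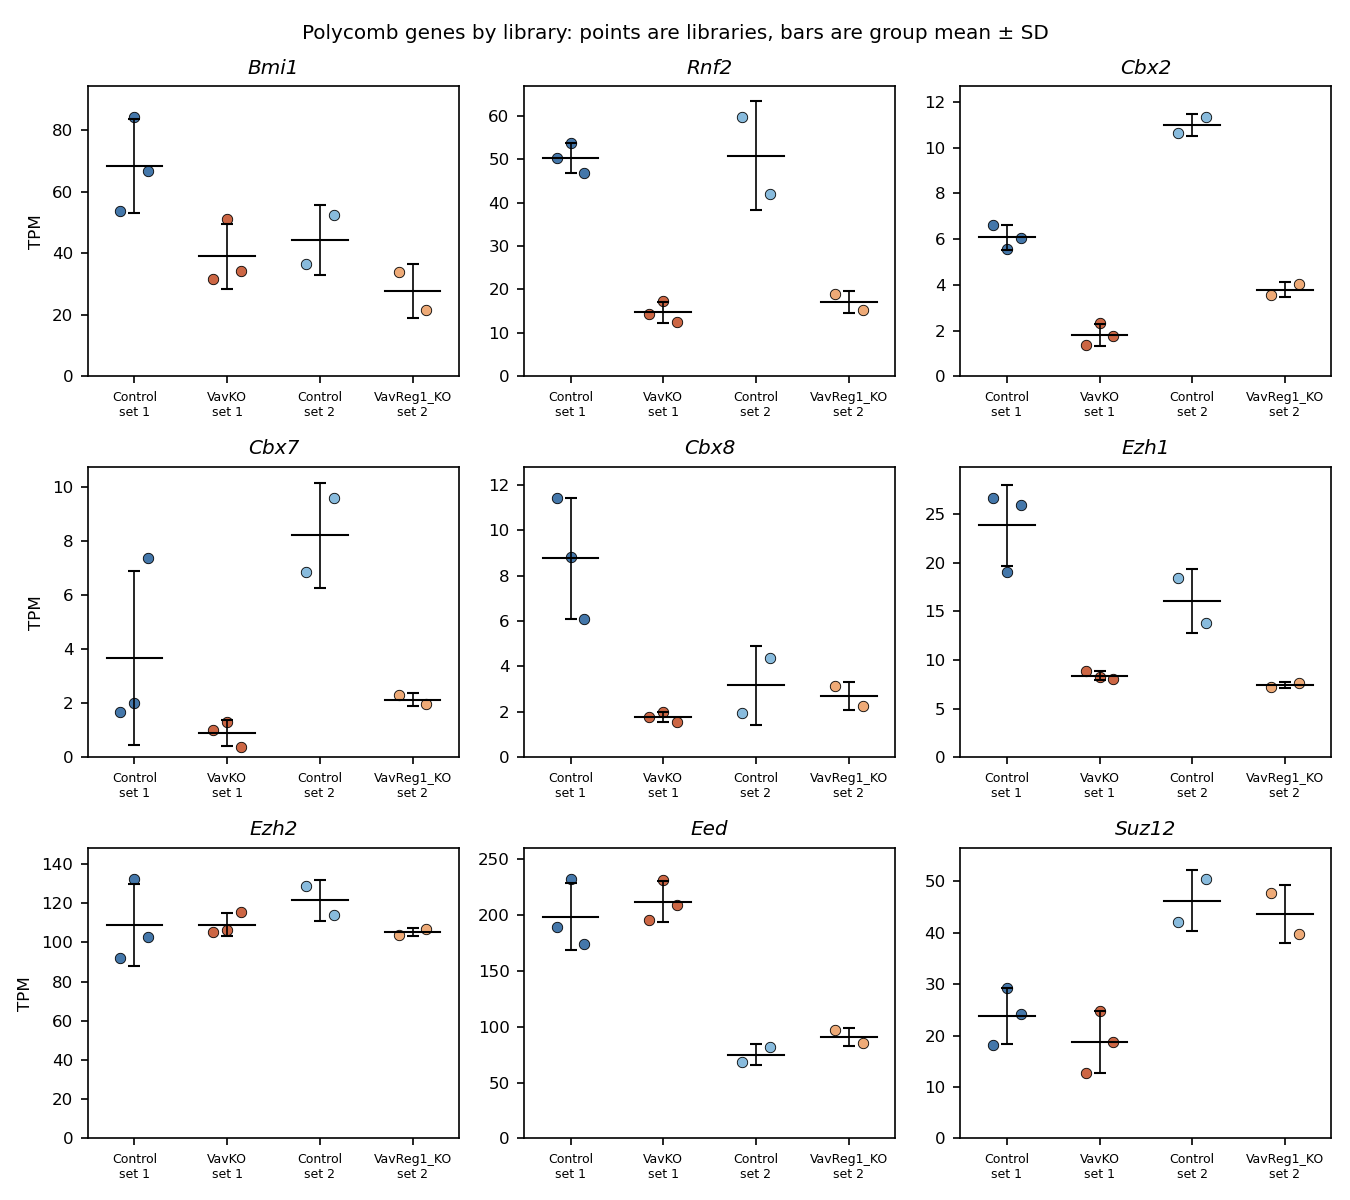
TPM of each of the 9 Polycomb genes (y axis, from 0) in the 4 groups (x axis); points are libraries and bars give the group mean ± SD (n = 3 per group in set 1, experiment 1, and n = 2 in set 2, experiment 2). Bmi1, Rnf2, Cbx2, Cbx7 and Ezh1 show no overlap between control and labelled Reg1Δ/Δ libraries within either experiment, while Ezh2, Eed and Suz12 overlap in experiment 1.

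Bmi1 was lower over both experiments. Its level in the controls was 53.7, 84.2 and 66.7 TPM in experiment 1 and 36.4 and 52.4 TPM in experiment 2. In the libraries labelled Reg1Δ/Δ it was 31.6, 51.0 and 34.1 TPM in experiment 1 and 33.9 and 21.5 TPM in experiment 2. The groups did not overlap within an experiment, but the gap was narrow, and replicate 2 of VavKO, the highest of its group, lay close to the lowest control. Across the experiments they did overlap. The group means were 58.7 ± 17.9 TPM in the controls and 34.4 ± 10.6 TPM in the libraries labelled Reg1Δ/Δ (SD, n = 5 each), a ratio of 1.70. The difference was −0.75 (SE 0.20, limma adjusted p = 0.0107). It was the smallest of the 6 differences called over both experiments. It was −0.80 (adjusted p = 0.0320) in experiment 1 alone and −0.67 (adjusted p = 0.283) in experiment 2 alone. Without the experiment as a covariate it was also −0.75, with an adjusted p of 0.0644, and after median-of-ratios scaling it was −0.34 (adjusted p = 0.165).

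Rnf2 (chr1:151458004-151500955, minus strand), the ubiquitin ligase of PRC1, had the largest difference of the 9 over both experiments on the log2(TPM + 1) scale. Cbx8 had a larger one in experiment 1 alone (−1.78 against −1.71), and Cbx7 had a larger one in experiment 2 alone (−1.55 against −1.50) and with a pseudocount of 0.1 (−1.79 against −1.69). The controls of Rnf2 were at 50.2, 53.6 and 46.7 TPM in experiment 1 and at 59.7 and 41.9 TPM in experiment 2. The libraries labelled Reg1Δ/Δ were at 14.2, 17.4 and 12.5 TPM in experiment 1 and at 18.9 and 15.3 TPM in experiment 2. All 5 of these were below all 5 controls, with a ratio of means of 3.22. The difference was −1.63 (SE 0.14, limma adjusted p = 1.08e-05).

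The Cbx subunits were the lowest of the 9 genes in level. Cbx2 (chr11:119022962-119031270, plus strand) and Cbx8 (chr11:119036305-119040969, minus strand) are neighbours, 5034 bases apart, and Cbx7 lies on chromosome 15 (chr15:79915807-79971119, minus strand). Cbx7 is the chromodomain subunit known to favour HSC self-renewal, whereas Cbx2 and Cbx8 are linked with differentiation.

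Cbx2 in the controls was at 6.63, 5.56 and 6.04 TPM in experiment 1 and at 10.7 and 11.3 TPM in experiment 2. The libraries labelled Reg1Δ/Δ had it at 1.36, 2.32 and 1.75 TPM in experiment 1 and at 3.55 and 4.03 TPM in experiment 2. The experiments differed in level, yet no library labelled Reg1Δ/Δ reached any control. The difference was −1.34 (SE 0.11, limma adjusted p = 1.05e-05), and the value was nearly the same in each experiment, −1.34 in experiment 1 and −1.32 in experiment 2.

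Cbx7 in the controls was at 1.66, 1.99 and 7.37 TPM in experiment 1 and at 6.84 and 9.59 TPM in experiment 2. The libraries labelled Reg1Δ/Δ were at 1.03, 1.32 and 0.38 TPM in experiment 1 and at 2.29 and 1.96 TPM in experiment 2. The controls of experiment 1 were uneven, with replicate 3 far above the others, and replicates 1 and 2 lay near the libraries labelled Reg1Δ/Δ. The difference was −1.29 (SE 0.31, limma adjusted p = 0.00636). In experiment 1 alone it was −1.12 (adjusted p = 0.0801), and after quantile normalization −0.42 (adjusted p = 0.358).

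Cbx8 differed between the experiments in its values. The controls were at 11.4, 8.82 and 6.09 TPM in experiment 1 and at 1.94 and 4.39 TPM in experiment 2. The libraries labelled Reg1Δ/Δ were at 1.78, 2.01 and 1.55 TPM in experiment 1 and at 3.12 and 2.27 TPM in experiment 2. With all its transcripts summed, the groups stood apart in experiment 1 and overlapped in experiment 2. The coding transcript alone, given below, did not overlap in either. The difference was −1.11 (SE 0.33, limma adjusted p = 0.0176) over both, −1.78 (adjusted p = 0.00100) in experiment 1 and −0.12 (adjusted p = 0.892) in experiment 2. The change of the difference between experiments was 1.66 (SE 0.43) and did not pass the test (limma interaction, adjusted p = 0.176). No member passed this interaction test, which called 0.443% of all genes. Cbx8 lost its call after quantile normalization (−0.33, adjusted p = 0.426) and without the filter on low values (adjusted p = 0.0590).

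Ezh1 (chr11:101191115-101226463, minus strand) was lower and its paralog Ezh2 (chr6:47530139-47595341, minus strand) did not pass the test. Ezh1 in the controls was at 26.7, 19.1 and 25.9 TPM in experiment 1 and at 18.4 and 13.8 TPM in experiment 2. In the libraries labelled Reg1Δ/Δ it was at 8.91, 8.24 and 8.01 TPM in experiment 1 and at 7.25 and 7.65 TPM in experiment 2. These 5 values were close together and all below the controls. The difference was −1.24 (SE 0.14, limma adjusted p = 6.26e-05), a ratio of means of 2.59.

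Ezh2 in the controls was at 91.8, 132.3 and 102.9 TPM in experiment 1 and at 129.0 and 114.1 TPM in experiment 2. In the libraries labelled Reg1Δ/Δ it was at 105.2, 106.3 and 115.7 TPM in experiment 1 and at 104.0 and 106.8 TPM in experiment 2. The groups overlapped in experiment 1, and the libraries labelled Reg1Δ/Δ lay below both controls in experiment 2. The difference was −0.07 (SE 0.12, limma adjusted p = 0.646) and turned to 0.34 (adjusted p = 0.0590) after median-of-ratios scaling.

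The ratio of Ezh1 to Ezh2, which a single scaling factor per library leaves as it is, was lower in the libraries labelled Reg1Δ/Δ. Ezh1 was at 29%, 14.4% and 25.2% of the Ezh2 level in the controls of experiment 1 and at 14.3% and 12.1% in those of experiment 2. In the libraries labelled Reg1Δ/Δ it was at 8.46%, 7.75% and 6.92% in experiment 1 and at 6.97% and 7.17% in experiment 2. With all transcript classes summed, all 5 were below all 5 controls, and the controls spread more widely. With protein-coding transcripts only, the groups stayed apart within each experiment but overlapped across them. There VavKO replicate 1 had Ezh1 at 5.68 and Ezh2 at 48.4 TPM. Control replicate 2 of experiment 2 had a lower ratio, with Ezh1 at 11.3 and Ezh2 at 103.9 TPM. The log2 ratio was −2.48 ± 0.56 in control libraries, against −3.75 ± 0.12 in those labelled Reg1Δ/Δ (SD, n = 5 each). The difference of −1.26, or 2.4-fold, had p = 0.0167 in a two-sided exact permutation test within experiments, the smallest p that 120 assignments allow. It was −1.51 in experiment 1 alone (exact p = 0.1) and −0.89 in experiment 2 (exact p = 0.333), again the smallest that each design can give.

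**Figure D2:**
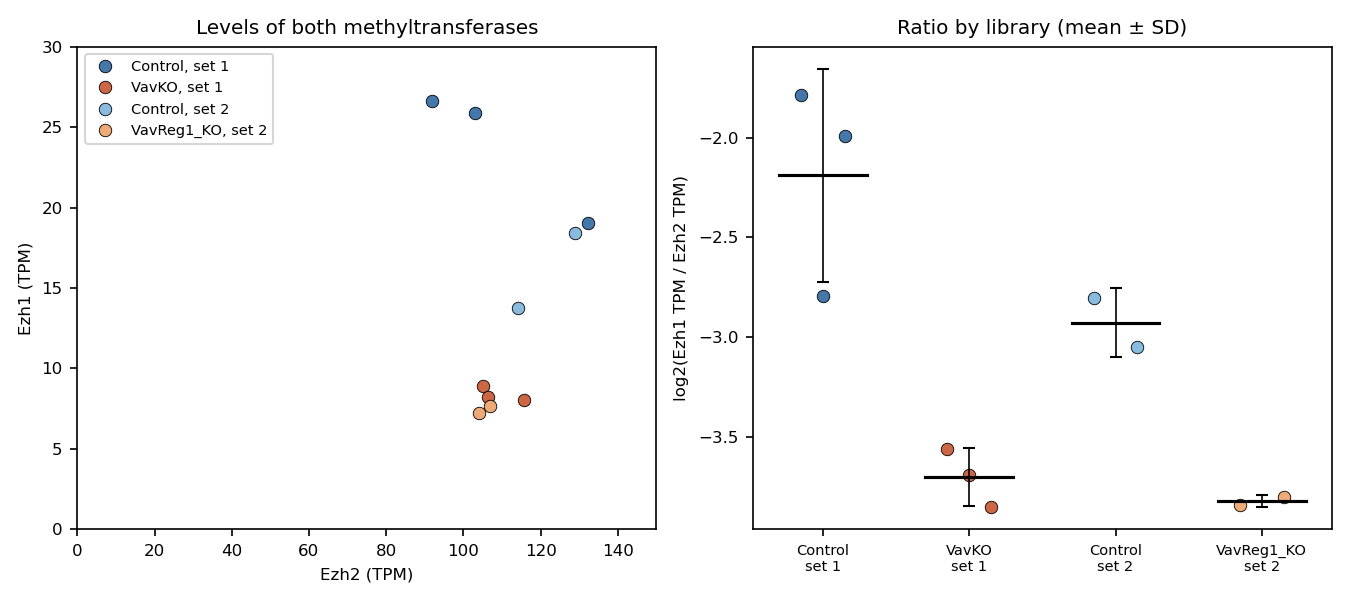
Left, Ezh1 against Ezh2 (both axes TPM, from 0), 1 point per library. Right, log2 of the Ezh1 to Ezh2 ratio by group, with points for libraries and bars for mean ± SD (n = 3 per group in set 1, experiment 1, and 2 in set 2, experiment 2). With all transcript classes summed, Ezh2 stays between 91.8 and 132.3 TPM in all 10 libraries while Ezh1 is at 7.25 to 8.91 TPM in the libraries labelled Reg1Δ/Δ and at 13.8 to 26.7 TPM in the controls. The protein-coding transcripts of Ezh2 alone are at 37.4 to 60.4 TPM in experiment 1 and at 87.4 to 103.9 TPM in experiment 2.

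Eed (chr7:89954654-89980983, minus strand), which binds methylated H3K27, was at 189.6, 232.2 and 174.3 TPM in the controls of experiment 1 and at 68.1 and 82.0 TPM in those of experiment 2. The libraries labelled Reg1Δ/Δ had it at 195.5, 231.6 and 208.7 TPM in experiment 1 and at 96.7 and 85.1 TPM in experiment 2. The step between experiments was far larger than any step between groups, and the groups overlapped in experiment 1. In experiment 2 both libraries labelled Reg1Δ/Δ were above both controls. The difference was 0.17 (SE 0.12, limma adjusted p = 0.254). After median-of-ratios scaling it was 0.59 and passed the test (adjusted p = 0.00166).

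Suz12 (chr11:79993106-80034123, plus strand), which holds the PRC2 core together, was at 18.2, 29.2 and 24.2 TPM in the controls of experiment 1 and at 42.1 and 50.5 TPM in those of experiment 2. The libraries labelled Reg1Δ/Δ were at 12.7, 24.9 and 18.8 TPM in experiment 1 and at 47.7 and 39.7 TPM in experiment 2. The groups overlapped in both experiments. The difference was −0.24 (SE 0.19, limma adjusted p = 0.315), and it was 0.16 after median-of-ratios scaling and 0.03 after quantile normalization.

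**Figure D3:**
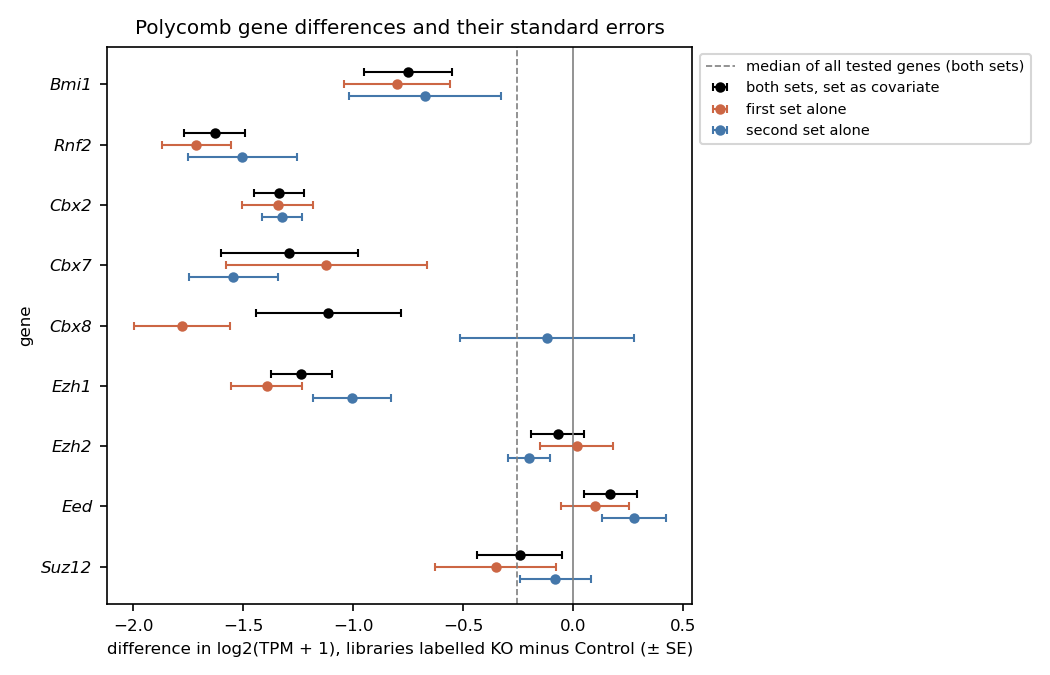
Difference in log2(TPM + 1), labelled Reg1Δ/Δ minus control, with its standard error (x axis) for each of the 9 genes (y axis), over both experiments and in each alone; the dashed line is the median of all tested genes, −0.25. With both experiments fitted together, Rnf2, Cbx2 and Ezh1 lie furthest from that line relative to their errors. Cbx8, with all its transcripts summed, is at −1.78 in experiment 1 and −0.12 in experiment 2.

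TPM is relative, so the scaling of the libraries bears on these counts. Median-of-ratios scaling moved the median difference of all genes by 0.36 and quantile normalization by 0.40. With the former, 25.2% of all genes were lower and 33.7% higher, and 5 members were lower and 1, Eed, higher. With the latter, 20.5% were lower and 30% higher, and 4 members were lower and 0 higher. Rnf2, Cbx2 and Ezh1 were lower under both. In experiment 1 alone 38.3% of all genes were lower and 12% higher, and 5 members were lower. In experiment 2 alone 12.3% were lower and 3.51% higher, and 2 members, Cbx2 and Cbx7, were lower, with Rnf2 at −1.50 (adjusted p = 0.0567) and Ezh1 at −1.0 (adjusted p = 0.0624).

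With all transcript classes summed, the order of levels also differed between groups. In the controls of experiment 1 Eed was highest, followed by Ezh2, Bmi1, Rnf2, Ezh1, Suz12, Cbx8, Cbx2 and Cbx7. Neighbours overlapped in their values for Ezh1 and Suz12, for Cbx8 and Cbx2 and for Cbx2 and Cbx7. In the controls of experiment 2 the order was Ezh2, Eed, Rnf2, Suz12, Bmi1, Ezh1, Cbx2, Cbx7 and Cbx8, with overlap between Rnf2 and Suz12 and between Suz12 and Bmi1. In the libraries labelled Reg1Δ/Δ Rnf2 stood below Suz12 in both experiments, by means of 14.7 against 18.8 TPM in experiment 1, where the values overlapped, and 17.1 against 43.7 TPM in experiment 2, where they did not. In the controls it stood above, by 50.2 against 23.9 TPM and 50.8 against 46.3 TPM. With protein-coding transcripts only, these orders changed. Rnf2 was then at 7.96, 12.6 and 9.59 TPM in the libraries labelled VavKO, above Suz12 at 5.68, 8.10 and 5.87 TPM. In the controls of experiment 2 it was at 23.55 and 25.9 TPM, below Suz12 at 42.1 and 50.5 TPM. Eed was at 54.9, 55.9 and 47.1 TPM in the controls of experiment 1, beside Bmi1 at 49.0, 77.1 and 62.9 TPM.

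Transcripts of the same gene were then compared. Of the 66 transcripts, 33 are annotated as protein-coding, and 29 passed the filter of at least 1 TPM in at least 5 libraries. Of these 29, 6 were lower and 0 higher, against 14.9% lower and 6.4% higher among all 31937 transcripts tested. The 6 belong to Bmi1, Rnf2 (2 transcripts), Cbx2, Cbx8 and Ezh1. The longest Bmi1 transcript, ENSMUST00000028071 with 3594 bases, went from 7.96 ± 1.05 to 4.61 ± 1.46 TPM in experiment 1 (SD, n = 3) and from 12.2 ± 2.35 to 6.85 ± 0.05 TPM in experiment 2 (SD, n = 2), a difference of −0.72 (limma adjusted p = 0.0168 over transcripts). Its other long transcript, ENSMUST00000051929, did not pass (−0.45).

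Rnf2 was lower both in the coding transcript ENSMUST00000076110 (−1.32, limma adjusted p = 0.00266) and in the non-coding processed transcript ENSMUST00000185945 (−1.69, limma adjusted p = 0.00222). A second coding transcript that was tested, ENSMUST00000186415, did not pass (−1.21, limma adjusted p = 0.164). The main Ezh1 transcript, ENSMUST00000107285, went from 12.8 ± 1.70 to 5.21 ± 1.09 TPM in experiment 1 and from 10.9 ± 0.33 to 6.35 ± 0.38 TPM in experiment 2 (−0.97, limma adjusted p = 0.00251). The coding transcript of Cbx8, ENSMUST00000026663, was lower too, at −0.70. It met the filter through the controls, so no p is given. In experiment 1 it was at 2.20, 1.45 and 1.19 TPM in the controls and at 0.621, 0.390 and 0.475 TPM in the libraries labelled Reg1Δ/Δ. In experiment 2 it was at 1.94 and 3.19 TPM and at 0.996 and 1.76 TPM, so the groups overlapped in neither. The non-coding processed transcripts of Cbx8 held 80.5% to 83.6% of its TPM in the controls of experiment 1 and 0% to 27.4% in those of experiment 2.

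The core PRC2 genes differed in transcript class mainly between the experiments. In experiment 1 retained-intron transcripts held 71.0% to 75.9% of the Eed TPM in the controls and 71.2% to 72.8% in the libraries labelled Reg1Δ/Δ. In experiment 2 they held 34.9% to 53.5% and 51.2% to 58.3%. The transcript ENSMUST00000208196 alone was at 85.4 ± 12.6 TPM in the controls of experiment 1 and at 1.28 ± 1.80 TPM in those of experiment 2, whereas the full coding transcript ENSMUST00000107234 was at 9.66 ± 2.13 and 37.3 ± 3.31 TPM. The Ezh2 transcript ENSMUST00000164006, annotated for nonsense-mediated decay, was at 26.8 ± 4.96 TPM in the controls of experiment 1 and listed at 0 in all 4 libraries of experiment 2. For Suz12, protein-coding transcripts held 27.5% to 34.0% in the controls of experiment 1 and 100% in those of experiment 2. Over all genes, protein-coding transcripts held 46.2% to 49.1% of the TPM in experiment 1 and 73.5% to 81.1% in experiment 2. The shares are descriptions with no test. With only protein-coding transcripts of at least 2000 bases summed, an alternative added after the data were seen, 6 members were again lower and 0 higher, Eed was at 0.01 (limma adjusted p = 0.940) and Ezh2 at 0.02 (limma adjusted p = 0.906).

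**Figure D4:**
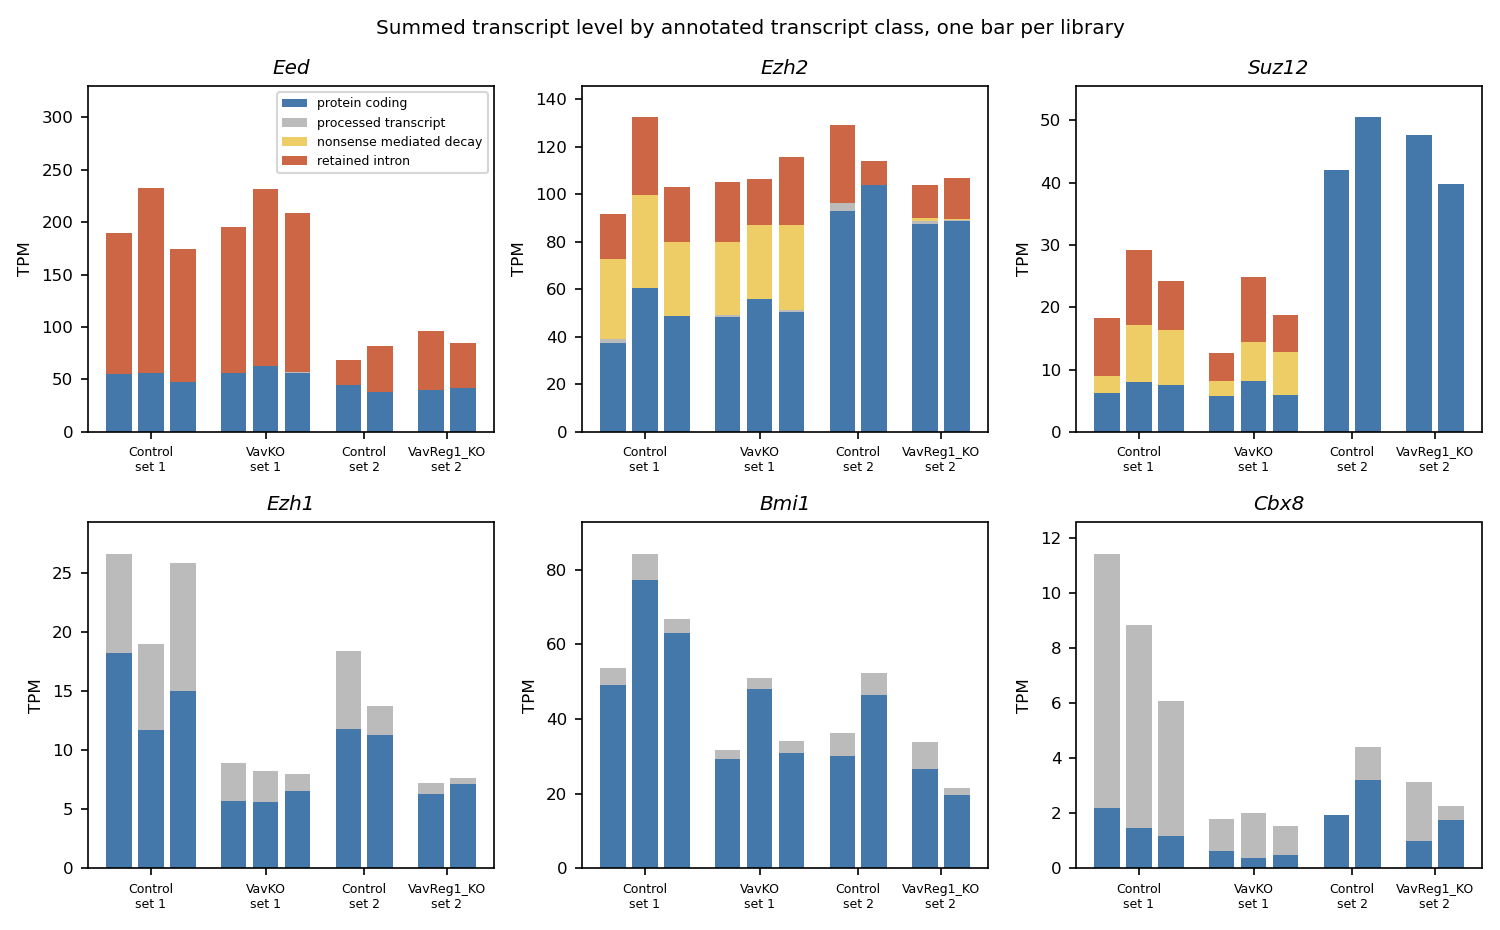
TPM of 6 Polycomb genes (y axis, from 0) split by annotated transcript class, 1 bar per library, grouped by experiment (set 1 and set 2) and label. Suz12 carries retained-intron and decay transcripts and Ezh2 decay transcripts mainly in experiment 1, Eed carries retained-intron transcripts in both experiments with a larger share in experiment 1, and the blue coding part of Ezh1 and Bmi1 is smaller in the libraries labelled Reg1Δ/Δ of both.

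Other genes of the Polycomb system were taken from 5 lists of 30 genes, of which 29 passed the filter. Of these 29, 16 were lower, 2 higher and 11 not called, with a median of −0.44. Over all tested genes 37.9% were lower and 15% higher. The split depended on scaling, with 8 lower and 6 higher after median-of-ratios scaling, where 25.2% of all genes were lower and 33.7% higher, and 6 lower and 6 higher after quantile normalization, where 20.5% were lower and 30% higher. The 8 and 6 lower were thus close to the share over all genes.

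Among the 8 other subunits of canonical PRC1, 5 were lower and 0 higher, beside 37.9% lower and 15% higher over all genes. With median-of-ratios scaling 4 were lower and 1 higher (25.2% and 33.7% over all genes), and with quantile normalization 3 were lower and 2 higher (20.5% and 30% over all genes). Phc3 was lower in the fit without scaling (−0.49, limma adjusted p = 0.00952) and turned to 0.42, called higher, under quantile normalization (limma adjusted p = 0.0312). Scmh1 (−1.43, limma adjusted p = 0.000180), a partner of the complex, and the polyhomeotic protein gene Phc1 (−1.39, limma adjusted p = 0.000460) had the largest differences, followed by the chromodomain gene Cbx6 (−1.23, limma adjusted p = 0.000667). Ring1, the paralog of Rnf2, was at −0.06 (SE 0.23) and did not pass, and its sign turned under both scalings. Pcgf2, the closest paralog of Bmi1, was at 0.37 (SE 0.43) over both experiments and went opposite ways in them. After quantile normalization it was called higher, at 1.2 (limma adjusted p = 0.0491). It was at 2.4, 3.83 and 4.08 TPM in the controls of experiment 1 and at 8.86, 12 and 10.9 TPM in the libraries labelled Reg1Δ/Δ, but at 6.75 and 9.60 TPM and at 3.24 and 2.79 TPM in experiment 2.

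Variant PRC1, which lacks the Polycomb Cbx subunits such as Cbx2, Cbx7 and Cbx8, was mixed. Of 9 tested genes, 2 were lower, 2 higher and 5 not called, beside 37.9% lower and 15% higher over all genes, and 1, Bcorl1, did not pass the filter. Pcgf5 (−0.88, limma adjusted p = 0.0203) and Bcor (−0.49, limma adjusted p = 0.0348) were lower but lost their calls under both scalings, with Bcor turning to 0.11 under quantile normalization. Pcgf6 (0.39, limma adjusted p = 0.0212) and L3mbtl2 (0.82, limma adjusted p = 0.00453), both of the complex that also holds E2F6 and silences germline genes, were higher and stayed so under both. Pcgf1, at 0.05 here, was called higher under both scalings, which left 0 lower and 3 higher, a share close to the 33.7% and 30% of all genes that were higher under them.

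PRC2 cofactors were lower in 6 of 7 genes, beside 37.9% of all genes. The Tudor-domain genes Phf1 and Phf19, whose proteins bring PRC2 to chromatin, were at −1.80 and −1.23 (limma adjusted p = 0.000948 for Phf19), and their paralog Mtf2 was at −0.74 (limma adjusted p = 0.000289). Phf1 fell to 0.419 to 1.25 TPM in the libraries labelled Reg1Δ/Δ from 3.79 to 6.73 TPM in the controls. It met the filter on low values through the controls, so no p is given for it, but it enters the counts. Jarid2 (−0.65, limma adjusted p = 0.00953), Aebp2 (−0.44, limma adjusted p = 0.0245) and the histone-binding gene Rbbp4 (−0.43, limma adjusted p = 0.00902) were lower by less. Rbbp7 was at 0.09 and did not pass, and it turned to −0.07 under quantile normalization. After either scaling 3 of the 7 were lower, beside 25.2% of all genes after median-of-ratios scaling and 20.5% after quantile normalization, Phf1 and Mtf2 under both, and Rbbp7 was higher after median-of-ratios scaling.

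Enzymes that remove the Polycomb marks were lower in part, beside the 37.9% of all genes that were lower. Of the 3 H2A deubiquitinase genes, Asxl1 was lower (−0.32, limma adjusted p = 0.0350) and turned to 0.07 and 0.05 under the scalings, while Bap1 (−0.27) and Asxl2 (−0.02) did not pass and turned positive under at least 1 of them, Asxl2 passing the test under both. Both H3K27 demethylases were lower, Kdm6a at −0.62 (limma adjusted p = 0.0102) and Kdm6b at −0.75 (limma adjusted p = 0.00273). Kdm6a lost its call under both scalings and Kdm6b under quantile normalization.

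**Figure D5:**
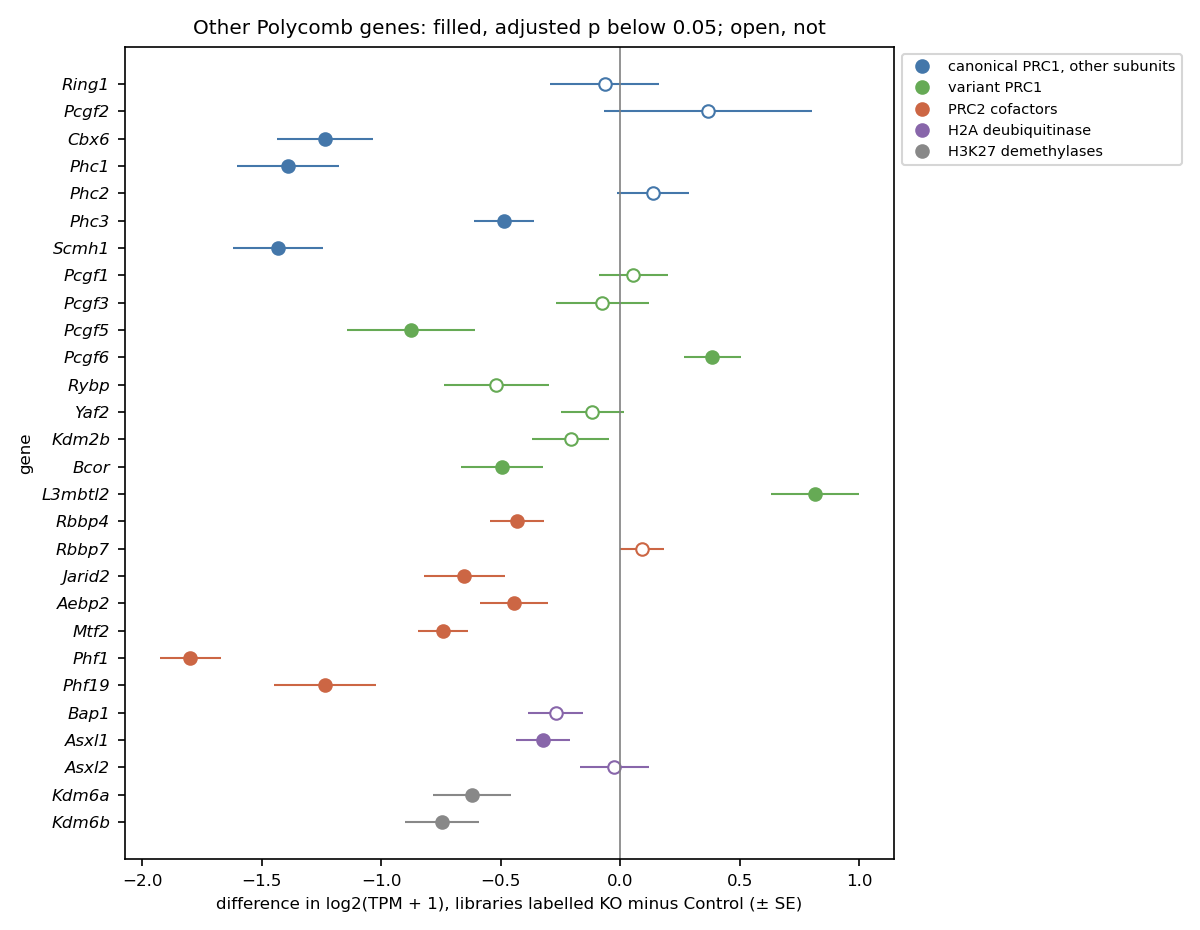
Difference in log2(TPM + 1), labelled Reg1Δ/Δ minus control, with its standard error (x axis) for 28 of the 29 other Polycomb genes tested (y axis), coloured by list; filled points passed the test. The 2 filled points above 0 are Pcgf6 and L3mbtl2, both of variant PRC1. The lowest is Phf1 at −1.80, which met the filter on low values through the controls. Of all 29 genes, 16 were lower, 8 after median-of-ratios scaling and 6 after quantile normalization.

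Genes listed as Polycomb targets were mostly too low to test. Cdkn2a, the locus that Bmi1 is best known for silencing, was listed at 0 in all 5 controls and at no more than 0.214 TPM in the libraries labelled Reg1Δ/Δ. Cdkn2b was at no more than 0.241 TPM in any library. Ebf1, a B lineage regulator, was at 2.86 to 52.6 TPM in the controls and at 0.0146 to 1.42 TPM in the libraries labelled Reg1Δ/Δ. It was the only gene of the 7 to pass the filter, and it passed through the controls, where it was high, so no test is given. Pax5 reached 17.8 TPM in the controls and 0.0312 TPM in the libraries labelled Reg1Δ/Δ, beside the B lineage markers above. The fetal genes Hmga2, Lin28b and Igf2bp3 were at 0.729 to 7.16, 0 to 1.04 and 0.251 to 2.86 TPM in the controls and at 0.0823 to 0.825, 0 to 0.0181 and 0.0737 to 0.954 TPM in the libraries labelled Reg1Δ/Δ.

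Cell cycle genes, given since Ezh2 is linked with division, were higher in 8 of 18 and lower in 1, against 15% and 37.9% of all genes. After median-of-ratios scaling 15 were higher, against 33.7% of all genes, and after quantile normalization 3 were higher, a share below the 30% of all genes. Ccne1, cyclin E1 of the G1 to S step, had the largest difference (1.52, limma adjusted p = 0.000370). Rrm2, a subunit of ribonucleotide reductase, was at 0.62 (limma adjusted p = 0.0252), and Ccnb1, cyclin B1, at 0.49 (limma adjusted p = 0.0357), and both lost their calls under quantile normalization. E2f2, an E2F transcription factor gene, was lower (−1.0, limma adjusted p = 0.00729), and lost its call under both scalings.

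The genes whose levels were most like those of Bmi1, Ezh1 and Ezh2 were found by Pearson's r of log2(TPM + 1) over the 10 libraries, after removal of the mean of each experiment, among 8142 genes. The libraries share these group differences, so r is a description. For Bmi1 they were Pja2 (r = 0.971), Adss (r = 0.970) and Msl2 (r = 0.967). Those for Ezh1 were Pim2 (r = 0.987), Arhgap30 (r = 0.987) and Pisd (r = 0.984). For Ezh2 the highest values were lower, with Gm25939 (r = 0.879), Myef2 (r = 0.872) and Ndc80 (r = 0.837). Among the members, r was 0.965 between Rnf2 and Cbx2 and 0.958 between Rnf2 and Ezh1, whereas Ezh1 and Ezh2 had r = 0.0656.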

How the data were processed

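RNA of sorted HSCs was profiled in 10 samples. The authors used STAR and the GRCm38 build for alignment and Salmon 0.9.1 (version per the labels) with the GENCODE M17 annotation for quantification. The deposited values are log2(TPM + 1), 1 per transcript. The sources name different versions of the SMART cDNA kit. The log2 step was undone here, and TPM was summed per gene. Depth is unknown, so no counting intervals are given. Groups were taken from the labels and experiments from the sample names. limma 3.58.1 (R 4.3.3, lmFit and eBayes, checked on simulated data) was run on log2(TPM + 1) with the experiment as covariate. P values were adjusted by Benjamini-Hochberg over all genes. Alternatives were other filters, pseudocounts, scalings and transcript classes, no covariate, a replicate block, a trend in eBayes, each experiment alone and each library left out. The Ezh1 to Ezh2 ratio was compared by exact permutation. Positions are those of GENCODE M21 on GRCm38, and promoters those of RefSeq.

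The members and lists were chosen with earlier results of these data known. Named are all members, Zc3h12a, all genes of a list with at most 7 tested, otherwise the 4 largest differences that passed, and the 3 genes most like Bmi1, Ezh1 and Ezh2 (mean TPM of at least 10). Ring1, Phc3, Pcgf1, Pcgf2, Bcorl1 and marker genes named as examples were chosen after their values were seen. Some genes of the lists enter the counts and sums but are not reported by name here.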

Additional observations from a re-analysis of the deposited data

Results flagged for a closer look

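Pcgf2, the paralog of Bmi1, differed between the experiments. Its difference was 1.39 (SE 0.20, limma adjusted p = 0.00186) in experiment 1 and −1.18 (SE 0.21, limma adjusted p = 0.0626) in experiment 2, and the change from experiment 1 to 2 was −2.57 (SE 0.32, limma interaction, adjusted p = 0.0194). In experiment 1 all 3 libraries labelled Reg1Δ/Δ were above all 3 controls, and in experiment 2 both were below both controls. The cause was not tested.

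Asxl2, a subunit of the H2A deubiquitinase, also moved in opposite ways without overlap, at −0.27 in experiment 1 and 0.35 in experiment 2, but the test of this change did not pass (limma interaction, adjusted p = 0.305). Groups of 3 and 2 libraries are too small to test single libraries as outlying.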

How the results depend on the processing

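The count of 6 lower members stayed within 1.5 times under every alternative but experiment 2 alone (2), with 6 whichever library was left out. The count of 0 higher members became 1 after median-of-ratios scaling, and stayed at 0 whichever library was left out. Of the other Polycomb genes, 16 lower and 2 higher became 5 and 1 without the experiment as covariate, 6 and 6 after quantile normalization, 8 and 6 after median-of-ratios scaling, and 5 and 1 in experiment 2 alone. Leaving out 1 library gave 13 to 17 lower and 1 to 2 higher, with 1 higher without Control replicate 3, VavKO replicate 2 or VavReg1_KO_LT-HSC replicate 1. The cause was not tested, beyond fewer samples in an experiment alone. The Ezh1 to Ezh2 difference ranged from −1.40 to −1.12 with 1 library left out (exact p from 0.0167 to 0.0333). It was −1.10 with protein-coding transcripts only, where the groups overlapped across the experiments but not within them. With the replicate number as a block it was −1.26 (exact sign-flip p = 0.0625, the smallest that 5 pairs allow). It was −1.51 in experiment 1 alone and −0.89 in experiment 2 (exact p = 0.1 and 0.333, the smallest possible). The numbers do not pair the samples (correlations of deviations 0.03, 0.17 and 0.07 in experiment 1, −0.05 in experiment 2), and limma with the replicate block called the same count of 6 members lower and 0 higher. Unknown depth limits the low genes Cbx2, Cbx7 and Cbx8.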
